A study of Mus musculus with 18 samples.

Results

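The step examined here is that from the PreCFU-E to the CFU-E in mice with 1 null copy of Scf, read from 6 of the 18 RNA-seq libraries of the study. PreCFU-E and CFU-E are successive erythroid progenitors of the bone marrow, and each of 3 KO/FL mice (replicates A, B and C) gave a library of both, so that the cell types were compared within a mouse and over all genes. KO/FL mice carry a null Scf allele over a floxed allele and no Cre, so every cell of the animal has 1 working copy. The other 12 libraries come from 3 FL/FL mice, with floxed alleles alone and no Cre, and from 3 KO/FL;Lepr-Cre mice, in which Cre is driven from the leptin receptor locus, active in marrow stromal cells, over the same null and floxed alleles (called Lepr-Cre mice from here on). The sorted progenitors themselves were not the target of that Cre. Mouse B is female and mice A and C are male in each genotype. No age was at hand for the animals. The 6 libraries are separate sorts from 3 animals.

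SCF, the product of Kitl, is the ligand of the receptor tyrosine kinase KIT and is made by stromal and endothelial cells of the marrow niche. KIT signalling carries early erythroid progenitors through their expansion, and erythropoietin, acting through its receptor EPOR, takes over as CFU-E mature. The erythroid programme is built on GATA1, KLF1 and TAL1, which replace GATA2 and other factors of earlier progenitors and turn on haem synthesis, iron uptake, globins and the spectrin-based membrane skeleton.

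The deposited counts held 21967 genes, of which 10732 passed the filter on low counts and were tested. Total counts per KO/FL library ran from 3541066 in PreCFU-E of mouse A to 8911102 in CFU-E of the same mouse, and 11382 to 13536 genes were detected. Levels are given as CPM, a gene's count over the TMM-scaled library size, and the CPM of a gene is comparable between libraries but not between genes of different length. Changes are log2 fold changes of CFU-E against PreCFU-E from edgeR's quasi-likelihood test with the mouse as a block. Their standard errors (SE) are approximate, the size of the log2 fold change over the square root of the test's F. The fit behind them used all 18 libraries, so an SE is not the spread between the KO/FL mice. The adjusted p is that of Benjamini and Hochberg over all tested genes. A gene is said to have risen or fallen where that p was below 0.05. In bulk RNA, a change in the number of cells of a type and a change in RNA per cell cannot be told apart.

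Kitl was at or near 0 in the sorted progenitors, with 1 count over the 3 PreCFU-E libraries and 1 over the 3 CFU-E libraries, so the targeted gene could not check the genotype labels here. The Kitl gene lies on chromosome 10 from 100015630 to 100100416 (GRCm38, positions of GENCODE M21). Kit (chromosome 5, 75574916 to 75656722), the receptor for SCF, stood at 669, 825 and 648 CPM in PreCFU-E of mice A, B and C and at 359, 449 and 321 CPM in CFU-E. All 3 PreCFU-E values lay above all 3 CFU-E values, and mouse B was highest in both cell types. Kit fell by 0.93 on the log2 scale (SE 0.08, adjusted p = 5.07e-13). Among genes of the sorting antigens, Slamf1 (CD150) was at 8.85, 7.03 and 7.43 CPM in PreCFU-E and at 0.452, 0.791 and 0.861 CPM in CFU-E, and Eng (CD105) at 142 to 153 and 156 to 188 CPM. CD150 and CD105 were used in the sort, so these differences describe the gates. Cells of both types were also enriched for KIT on beads before the sort, and the part of that step in the Kit difference was not tested. Ly6a (Sca1) had 0 counts in all 6 libraries. Erythroid progenitor markers were high in both cell types: the 10 listed genes summed to 6742 to 7170 CPM in PreCFU-E and 8696 to 9261 CPM in CFU-E, and 8 of them rose. Markers of other lineages were low, with summed levels of at most 5.06 CPM over 16 neutrophil and monocyte genes, 5.8 over 9 T and NK cell genes, 4.97 over 8 B cell genes, 7.43 over 10 island macrophage genes and 5.02 over 10 mast cell, basophil and eosinophil genes in any KO/FL library. Megakaryocyte genes (14) went from 62.2 to 72.7 CPM in PreCFU-E to 44.4 to 54.9 CPM in CFU-E, endothelial genes (9) from 32.1 to 60.2 to 18.2 to 31.5 CPM, and stromal genes (10) from 7.14 to 14.9 to 1.44 to 2.15 CPM. Among them Gp5, Pecam1, Tek, Col1a2 and Pdgfrb fell, and without mouse A no stromal gene did. The part of such cells in the changes below was not tested.

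Of the 10732 tested genes, 2152 differed between the cell types in KO/FL mice, 20.1% of those tested. There were 1103 rises (10.3%) and 1049 falls (9.77%). The counts of the gene lists below are to be read beside these shares. Falls were more often large: 231 rises and 493 falls passed 2-fold, and 83 rises and 242 falls passed 4-fold. The median log2 fold change of all tested genes was 0.01, and the 3 mice had the same sign in 2128 of the 2152 genes. The 3 libraries of a cell type all lay above the 3 of the other in 1882 of them and in 3324 of all tested genes (31.0%). Leaving out mouse A, B or C gave 1570, 1510 and 1500 genes, and a fit without the mouse as a block gave 1510.

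**Figure D1:**
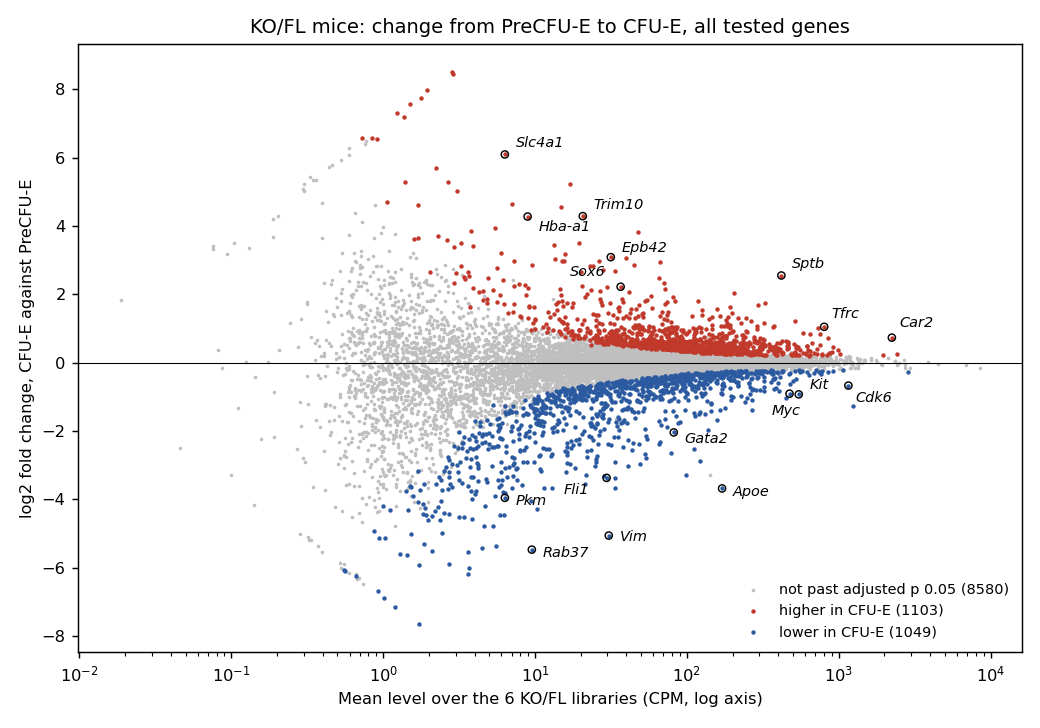
Each point is a tested gene, by its mean level over the 6 KO/FL libraries (CPM, log axis) and its log2 fold change of CFU-E against PreCFU-E. The 1103 rises are red, the 1049 falls blue and the 8580 other genes grey, and large falls reach genes of moderate level such as Apoe and Vim while the largest rises sit at low levels.

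The largest rises among genes with a mean of at least 5 CPM were led by Slc4a1 (chromosome 11, 102348824 to 102366203), which encodes band 3, the anion exchanger of the red cell membrane. It had 0, 0 and 0.446 CPM in PreCFU-E of mice A, B and C and 11.6, 16.3 and 9.61 CPM in CFU-E. With 3 counts in PreCFU-E against 314 in CFU-E, the ratio was 72.8-fold with an exact binomial 95% interval of 24.7 to 355 that covers counting error only (adjusted p = 8.53e-09). Trim10, an E3 ligase gene of maturing erythroid cells, was at 1.66, 0.551 and 4.31 CPM in PreCFU-E and 33.3, 34.6 and 49.3 CPM in CFU-E (log2 fold change 4.29, SE 0.32). Cacna1e, a calcium channel subunit, went from 0.743 to 1.38 CPM to 12.1 to 45 CPM (4.57, SE 0.39). These groups stood far apart in every mouse. Rab3il1 (5.24), Fhdc1 (4.65), Hba-a1 (4.28), Tspan15 (3.94), Sec14l2 (3.81), Rgcc (3.5), Slc46a3 (3.45), Trim2 (3.22) and Scd1 (3.19) completed the 12, all as log2 fold changes. The call of Fhdc1 was lost without mouse A (adjusted p = 0.0532) and without mouse B (0.084). Scd1 is a stearoyl-CoA desaturase and Sec14l2 a lipid transfer protein.

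The 12 largest falls were Rab37 (-5.47), Atp10a (-5.36), Vim (-5.06), Abcg1 (-4.78), Kctd12 (-4.46), Lcp2 (-4.46), Spns3 (-4.30), Plac8 (-4.06), Pkm (-3.96), Adgrg3 (-3.89), Plcb2 (-3.80) and Stx3 (-3.80), as log2 fold changes. Vim, the intermediate filament vimentin, stood at 56.7, 53.5 and 68.1 CPM in PreCFU-E and at 1.69, 1.58 and 2.01 CPM in CFU-E (SE 0.69, adjusted p = 0.00169). The mice lay within a narrow range in both cell types. Rab37, a small GTPase of secretory granules, was at 7.19, 28.2 and 20.7 CPM and then at 0.677, 0.226 and 0.143 CPM, and mouse A was lowest in PreCFU-E. Lcp2, an adaptor of immune receptors also named SLP-76, went from 6.64 to 14.7 CPM to 0 to 0.791 CPM. Abcg1 is a sterol exporter, and Plcb2 a phospholipase C of G-protein-coupled receptors.

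Among called genes, 10 had no count in the 3 PreCFU-E libraries. With the 3 PreCFU-E libraries set to a joint floor of 3 counts, Slc30a10, a manganese exporter, was at least 32.8-fold higher in CFU-E, and Alas2 at least 32.6-fold. The other 8 were Bcl2l15 and Hbb-bs (at least 20.9-fold each), Lonrf2, Dusp8, Hsd11b2, Mmp27, Pdia2 and Aldh3b2 (at least 18.3-fold to at least 8.32-fold). No count was found in CFU-E for 7 called genes, from Arhgap27 (at least 31.3-fold lower) through Hspa12b, Slc7a8, Cpxm1, Thap3 and Mfap3l to Serpina3g (at least 9.81-fold lower). Alas2 and Hbb-bs apart, these genes were named after their values were seen.

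**Figure D2:**
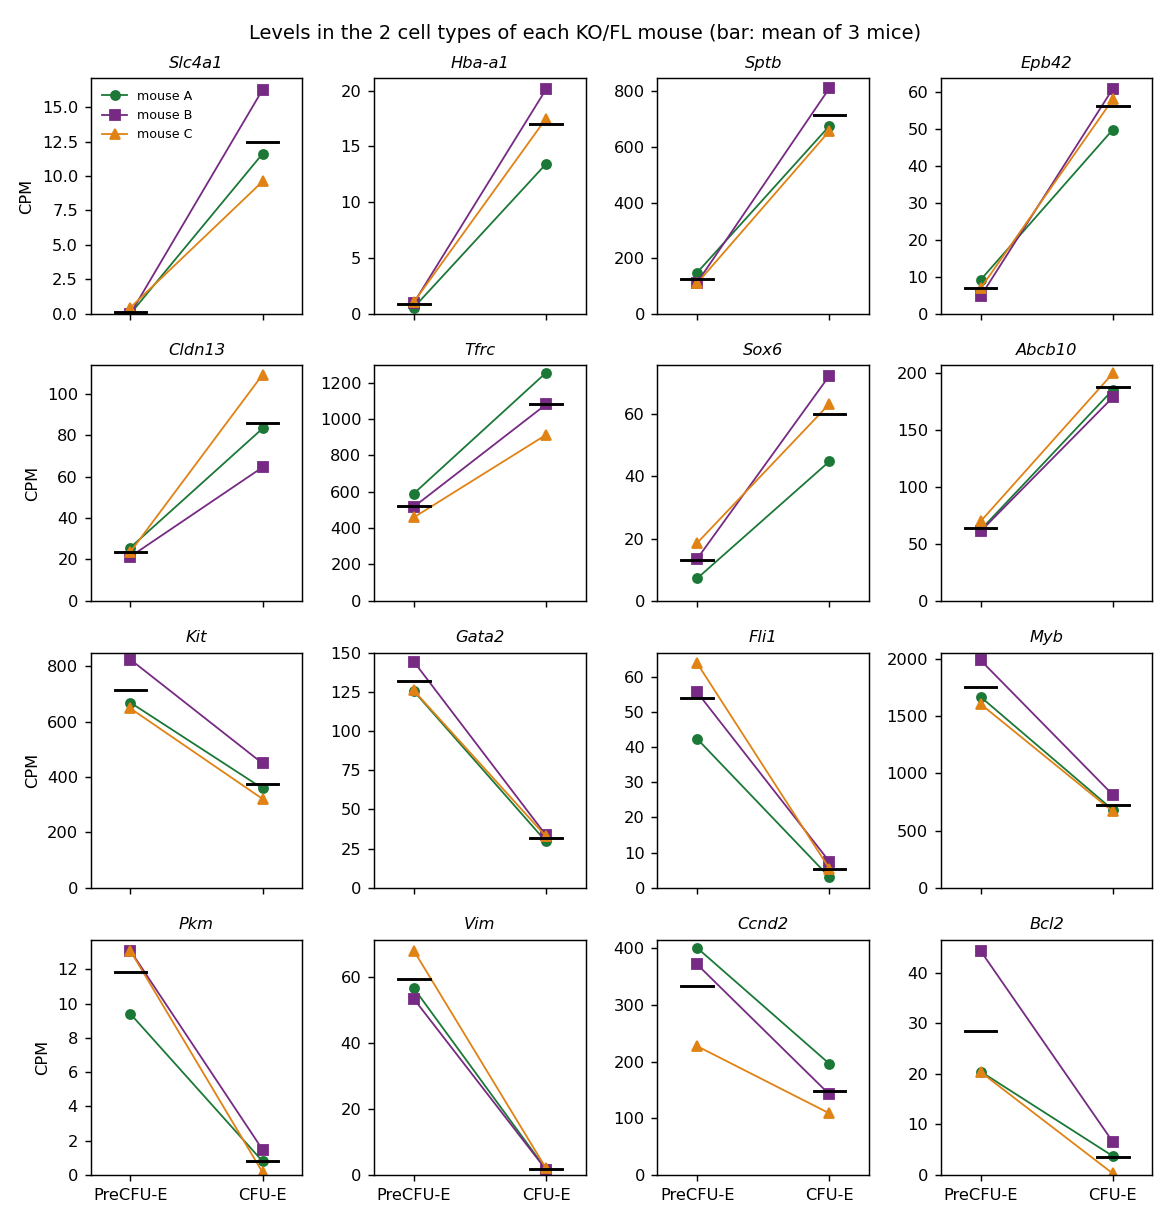
Levels (CPM, axes from 0) of 16 genes in PreCFU-E and CFU-E of each KO/FL mouse, joined by a line per mouse, with the mean of 3 mice as a bar. The lines of all 3 mice run the same way in each panel, upward for the 8 genes from Slc4a1 to Abcb10 and downward for the 8 from Kit to Bcl2.

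Globin mRNA appeared between the cell types at a low level. The 9 globin genes of the table summed to 0.553, 1.1 and 2.82 CPM in PreCFU-E of mice A, B and C and to 21.1, 29.7 and 36.3 CPM in CFU-E. Of the 4 tested, 3 rose and the other did not pass, and the median log2 fold change was 4.06, also with Hbb-bs at its bound. Hba-a1 (chromosome 11, 32283511 to 32284465), an adult alpha globin copy, was at 0.553, 0.964 and 1.04 CPM and then at 13.4, 20.1 and 17.5 CPM (log2 fold change 4.28, SE 0.46, adjusted p = 2.13e-10). Hbb-bt, an adult beta globin copy, went from 0 to 1.49 CPM to 5.87 to 8.75 CPM (3.85, SE 0.71). Hbb-bs had no count in PreCFU-E and 0.903, 2.37 and 8.46 CPM in CFU-E, with mouse C highest, and its call was lost without mouse C (adjusted p = 0.063). Hba-a1 and Hba-a2, and Hbb-bs and Hbb-bt, are near-identical copies, so their separate counts are uncertain. Late erythroblast markers as a list, which holds these globins, summed to 183 to 293 CPM in PreCFU-E and 743 to 768 CPM in CFU-E, and 9 of 11 rose.

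Most genes of haem synthesis rose. All 17 were tested, 13 rose and 4 did not pass, and the median log2 fold change was 0.86 (0.90, 0.83 and 0.79 in mice A, B and C) beside 0.01 over all tested genes. Alas2, the erythroid enzyme of the first step, had no count in PreCFU-E and 4.74, 4.41 and 8.03 CPM in CFU-E. Alas1, the housekeeping form, did not pass the test, with 37.9 to 39.3 CPM in PreCFU-E and 21.8 to 36.4 CPM in CFU-E. Uros rose by 1.79 (SE 0.19), Ppox by 1.3 (SE 0.20), Cpox by 0.82 (SE 0.08) and Fech, which inserts the iron, by 0.86 (SE 0.10). Alad rose by 0.61 and Urod by 0.59. Mitochondrial transporters that serve the pathway also rose: Abcb10 went from 62.2, 61 and 69.7 CPM to 185, 179 and 199.8 CPM (1.55, SE 0.11), and the glycine carrier Slc25a38 rose by 1.36, Tmem14c by 1.08 and Abcb6 by 1.01. Blvrb, a biliverdin reductase, rose by 0.81, 1 of 2 rises among 5 tested genes of haem export and breakdown. The call of the other, Blvra, was lost in 14 of 22 alternatives, among them whichever KO/FL mouse was left out.

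To show the DNA next to the start of genes that rose, 5 promoter windows from RefSeq (GRCm38.p6) are printed, each the 250 bases that precede the start, 5′ to 3′ on the gene's strand. Capitals mark AGATAA, the form of the GATA1 motif searched, and CCNCNCCC, the form searched for KLF1, or their reverse complements, and overlapping matches run together. The windows are those of Alas2 (chrX:150547167-150547416, plus strand), Hbb-bs (chr7:103827929-103828178, minus strand), Epb42 (chr2:121036878-121037127, minus strand), Trim10 (chr17:36869324-36869573, plus strand) and Sptb (chr12:76710548-76710797, minus strand).
Alas2: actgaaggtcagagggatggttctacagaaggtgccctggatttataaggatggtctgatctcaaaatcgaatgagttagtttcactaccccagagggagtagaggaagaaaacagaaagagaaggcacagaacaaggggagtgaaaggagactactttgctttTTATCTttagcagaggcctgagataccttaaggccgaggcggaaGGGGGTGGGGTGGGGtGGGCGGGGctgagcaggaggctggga
Hbb-bs: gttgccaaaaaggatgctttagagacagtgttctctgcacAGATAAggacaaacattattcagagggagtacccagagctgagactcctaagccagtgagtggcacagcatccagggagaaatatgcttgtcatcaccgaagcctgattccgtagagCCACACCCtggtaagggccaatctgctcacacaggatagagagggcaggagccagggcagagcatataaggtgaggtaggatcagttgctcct
Epb42: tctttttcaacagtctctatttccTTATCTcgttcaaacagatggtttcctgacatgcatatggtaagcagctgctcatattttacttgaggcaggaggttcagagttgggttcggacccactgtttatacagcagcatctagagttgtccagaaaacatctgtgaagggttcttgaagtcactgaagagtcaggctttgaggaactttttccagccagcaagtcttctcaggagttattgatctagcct
Trim10: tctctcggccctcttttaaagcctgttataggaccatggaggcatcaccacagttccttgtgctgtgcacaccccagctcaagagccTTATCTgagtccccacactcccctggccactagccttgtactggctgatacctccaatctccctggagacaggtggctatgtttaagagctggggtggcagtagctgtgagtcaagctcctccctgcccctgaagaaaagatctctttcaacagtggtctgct
Sptb: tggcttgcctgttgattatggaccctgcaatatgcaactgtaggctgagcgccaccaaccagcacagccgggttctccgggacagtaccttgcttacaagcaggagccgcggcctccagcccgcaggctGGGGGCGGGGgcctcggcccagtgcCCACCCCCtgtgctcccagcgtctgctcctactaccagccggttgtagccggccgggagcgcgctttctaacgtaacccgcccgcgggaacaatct
Alas2 holds AGATAA on the reverse strand with its first base at -86 from the start and 4 reverse-strand CCNCNCCC, of which some overlap. Hbb-bs holds both motifs on the forward strand, at -210 and -93. Epb42 and Trim10 hold AGATAA on the reverse strand, at -226 and -163, and the Sptb window holds CCNCNCCC 3 times and lacks AGATAA. The 5 windows are examples and are not typical of the genes that rose. Windows of Hba-a1, Klf1, Abcb10 and Tfrc, which also rose, held no AGATAA. Of 196 named genes with a window, whichever way they changed, 25 held AGATAA and 140 held CCNCNCCC. On either strand AGATAA was found in 9.99% of all 32851 windows and CCNCNCCC in 45.9%. By gene, at least 1 window with AGATAA was found for 11.4% of all genes with a window and 7.20% of the tested ones. The share was 10.1% for genes that rose and 7.90% for those that fell. Among changes of more than 4-fold it was 23.7% (14 of 59) for rises and 9.44% (17 of 180) for falls. CCNCNCCC was in 63.2% of windows of tested genes, 64.5% of windows of genes that rose and 68.4% of those of genes that fell. These shares are descriptions of the letters in short windows and not of binding.

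Of 19 tested genes of iron handling, 9 rose and 10 did not pass. Tfrc (chromosome 16, 32608920 to 32632794), the transferrin receptor, went from 589.6, 517 and 458 CPM to 1254, 1079.8 and 913 CPM in mice A, B and C (1.05, SE 0.08, adjusted p = 5.15e-15). Mouse A was highest and mouse C lowest in both cell types. Ferritin heavy and light chains rose, Fth1 by 0.72 and Ftl1 by 0.74 (SE 0.08 and 0.09), as did the mitochondrial iron importer Slc25a37 (0.81), the iron-sulphur protein Glrx5 (0.61), the endosomal iron transporter Slc11a2 (0.45), the ferrireductase Steap3 (0.38) and the exporter ferroportin, Slc40a1 (0.41). Tfr2 stood at 174 to 226 CPM and then at 197 to 234 CPM and did not pass. The median of the list was 0.27.

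Genes of the spectrin-based membrane skeleton changed in both directions. Of 14 tested, 9 rose and 2 fell, with a median of 0.83 (0.70, 0.93 and 0.85 in the 3 mice). Sptb (chromosome 12, 76580488 to 76710547), erythroid beta spectrin, was at 148, 112 and 109.6 CPM in PreCFU-E and 675, 811 and 657 CPM in CFU-E, groups that stood far apart (2.55, SE 0.10, adjusted p = 7.32e-20). Epb42, which joins band 3 to ankyrin, rose from 9.13, 4.68 and 6.84 CPM to 49.8, 60.8 and 58 CPM (3.09, SE 0.24). Dmtn (2.84), Add2 (1.08), Ank1 (0.84), Mpp1 (0.82), Tpm1 (0.48) and Epb41 (0.44) rose as well. Another adducin, Add3 (-0.68), and the tropomyosin Tpm3 (-0.60) fell. Surface proteins of the red cell gave 13 rises among 23 tested, with a median of 0.36, and the other 10 did not pass. Cldn13, a claudin of erythroid cells, went from 25.7, 21.4 and 23.6 CPM to 83.3, 64.6 and 109 CPM (1.84, SE 0.17), and the groups did not overlap. The rhesus proteins Rhd (1.33) and Rhag (1.17), Tspan33 (1.09) and Cd24a (1.0) followed, while the water channel Aqp1 was already at 768 to 862 CPM in PreCFU-E and at 818 to 937 CPM in CFU-E and did not pass.

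Red cell enzymes gave 4 rises and 1 fall among 14 tested, where 10.3% of all tested genes rose and 9.77% fell. Car2, carbonic anhydrase 2, rose from 1574, 1683 and 1794 CPM to 2697, 2745 and 2937 CPM (0.73, SE 0.08). Car1 stood at 2689.5 to 3022 CPM and then at 2259 to 2803 CPM and did not pass, although it was among the 3 most abundant genes per kilobase of exon in PreCFU-E, at 2320.4 CPM per kb beside 2250.4 for Rplp1 and 2346 for Hsp90ab1. Prdx2, a peroxiredoxin, rose by 1.04 and Pklr, the red cell pyruvate kinase, by 0.63. Gpx1 rose by 0.37, and Cat, catalase, fell by 0.44 with its call lost without mouse A (adjusted p = 0.072). Among 16 tested genes linked to organelle loss and proteolysis in late erythroblasts, 7 rose and 1 fell. Beside Trim10 these were Isg20 (1.37), Ube2l6 (0.95), Mkrn1 (0.70), Slc43a1 (0.69), Fbxo7 (0.59) and Ube2o (0.57), and the fall was Hdac6 (-1.13).

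Erythroid transcription factors divided. Of 21 tested, 7 rose and 5 fell, with a median of 0.10. The core factors were high before the step: Gata1 stood at 174, 211 and 194 CPM and then at 200.5, 228 and 246 CPM (0.22, adjusted p = 0.0782), and Tal1 at 324 to 338 and 369 to 395 CPM (0.22, adjusted p = 0.0505), neither past the threshold. Klf1 rose by 0.33 (SE 0.08) and the repressor Gfi1b by 0.55 (SE 0.09). Sox6, which takes part in globin switching, had the largest rise of the list, from 7.19, 13.5 and 18.6 CPM to 44.8, 72.4 and 63.3 CPM (2.22, SE 0.20, adjusted p = 5.92e-12). E2f2 (1.38) and E2f4 (0.58), which govern cell cycle genes in erythroid cells, rose. Myb, a factor of proliferating progenitors, went from 1667, 1987 and 1604 CPM to 681, 812 and 667 CPM (-1.28, SE 0.09, adjusted p = 1.07e-14). Nfe2 (-0.77), Cbfa2t3 (-0.71), Nr3c1 (-0.43) and Ldb1 (-0.26) fell, Nr3c1 not without mouse B. Without the mouse block the list gave 5 rises and 3 falls. Zfpm1 had 0 counts in all 6 libraries, while 21 of the 22 listed factors were detected in every library of the series. The annotation used for counting is not given. Whether the 0 reflects the cells or the counting was not tested.

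Of 24 listed regulators of earlier progenitors, 20 were tested, 13 fell and 7 did not pass, and the median was -1.92 (-1.56, -2.01 and -1.85 in mice A, B and C). Gata2 (chromosome 6, 88193891 to 88207032) was at 126, 144 and 126 CPM in PreCFU-E and 29.6, 33.6 and 32.9 CPM in CFU-E (-2.04, SE 0.16, adjusted p = 1.04e-13). Fli1, a factor of the megakaryocyte branch, went from 42.3, 55.5 and 63.8 CPM to 3.05, 7.46 and 5.45 CPM (-3.37, SE 0.26). Meis1 (-3.16), which acts together with Hox proteins, fell, and so did Hoxa9 (-1.34). Spi1, the PU.1 factor of myeloid cells, was already low at 4.42, 4 and 5.05 CPM and reached 0.339, 0 and 0.574 CPM (-4.05, SE 1.14). Hlf (-3.75), Angpt1 (-2.90), Ikzf2 (-2.58), Hhex (-2.38), Mn1 (-1.65), Sox4 (-1.61) and Etv6 (-0.77) fell as well. Runx1 stood at 209.8 to 271 CPM and then at 185 to 264 CPM and did not pass.

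**Figure D3:**
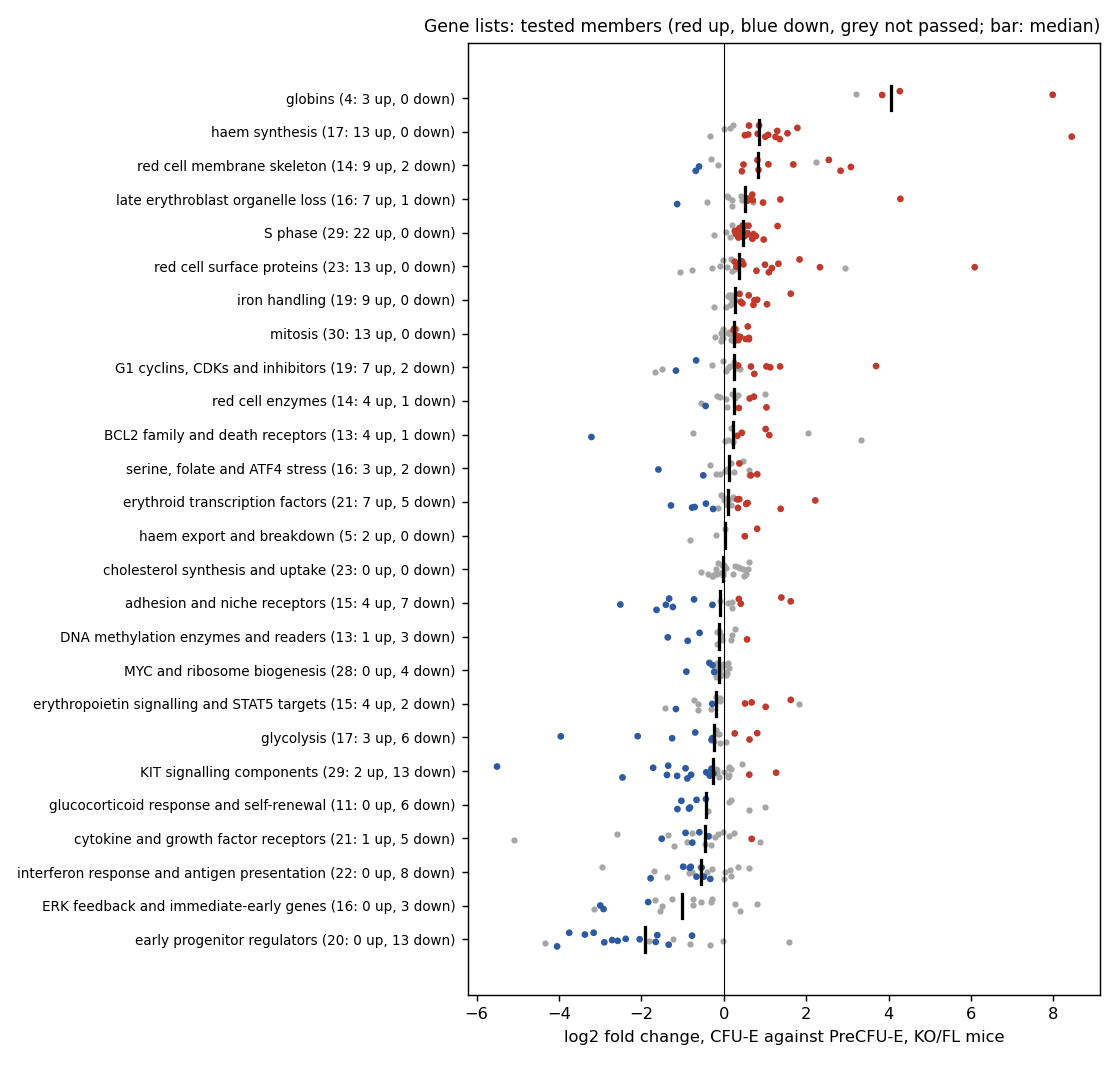
Log2 fold changes of CFU-E against PreCFU-E in KO/FL mice for the tested members of 26 gene lists, red where they rose, blue where they fell and grey where they did not pass, with the median as a bar. Globins, haem synthesis and the membrane skeleton have the highest medians (4.06, 0.86 and 0.83) and early progenitor regulators the lowest (-1.92).

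All 29 listed components of KIT signalling, Kit included, were tested: 13 fell, 2 rose and 14 did not pass, with a median of -0.25. Pik3cd, a catalytic PI3-kinase subunit of blood cells, went from 114, 88.4 and 97.1 CPM to 32.2, 27.5 and 31.3 CPM (-1.71, SE 0.15). Falls were also seen for Vav1, a guanine nucleotide exchange factor (-1.38, SE 0.13), the Src-family kinase Lyn (-1.35, SE 0.19), the adaptor Grb2 (-1.13, SE 0.11) and the phospholipase Plcg2 (-2.46, SE 0.36). Dok2, an adaptor that restrains RAS signalling, had 84 counts in PreCFU-E and 2 in CFU-E, a ratio of 60.4-fold (exact binomial 95% interval 16.2 to 506.7). The adaptors Gab1 and Gab2 went opposite ways. Gab1 rose from 47.6, 39.1 and 38.2 CPM to 93.7, 112 and 94.1 CPM (1.27, SE 0.14), and Gab2 went from 114, 71.8 and 84.6 CPM to 71.7, 38.2 and 39.9 CPM (-0.89, SE 0.14). Shc1 rose by 0.62 (SE 0.13). Ptpn11 (0.16), the SHP2 phosphatase, did not pass. Of 16 tested feedback and immediate-early genes of the ERK pathway, 3 fell and 13 did not pass, a share near the 20.1% of all tested genes. Egr1 went from 11.6, 22 and 10.9 CPM to 1.69, 1.92 and 2.01 CPM (-2.92, SE 0.44), beside Fosl2 (-3.0) and Dusp6 (-1.84). The calls of Fosl2 and Dusp6 were lost whichever mouse was left out. The count was 1 fall and 1 rise without mouse A, 1 fall without mouse C and 6 falls by DESeq2.

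The 21 tested cytokine and growth factor receptors, Kit included, gave 5 falls and 1 rise, and the other 15 did not pass, where 20.1% of all tested genes passed. The rise was Epor, from 58.1, 76.7 and 59.3 CPM to 90.5, 104 and 116 CPM (0.68, SE 0.13, adjusted p = 5.88e-05), and the groups did not overlap. Falls were seen for Tgfbr2 (-1.51), Ifngr1 (-0.76), Igf1r (-0.59) and Il1rl1 (-0.38, lost without mouse B). Erythropoietin signalling and STAT5 target genes gave 4 rises and 2 falls among 15 tested. Besides Epor, the rises were Fam132b, the erythroid hormone erythroferrone, from 1.34 to 2.21 CPM to 4.18 to 7.56 CPM (1.63, SE 0.48), Bcl2l1 (1.02) and Podxl (0.52), which stood highest in mouse A in both cell types, at 40.7 and 54.7 CPM. The falls were Ccnd2 (-1.16) and Stat5b (-0.28). The list gave 2 rises and 1 fall without mouse A and the same without mouse C, and the call of Bcl2l1 was lost without mouse A or B. Those of Fam132b and Stat5b were lost without mouse A or C, and that of Podxl without mouse C. In the 12 libraries without Lepr-Cre mice, Fam132b (adjusted p = 0.134) and Podxl (0.216) missed the threshold. They also missed it in the 6 KO/FL libraries alone with the mouse as a block (0.080 and 0.124).

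Most genes of DNA replication rose. Of 29 tested S phase genes, 22 rose and 7 did not pass, with a median of 0.46 (0.42, 0.37 and 0.54 in the 3 mice). Rrm2, the ribonucleotide reductase subunit made in S phase, went from 149, 155 and 120.4 CPM to 362, 318 and 365 CPM (1.31, SE 0.09, adjusted p = 1.37e-15). Tk1 (0.97), Cdc6 (0.78), Prim1 (0.72), Slbp (0.69), Pcna (0.58) and the helicase subunits Mcm2 (0.48) and Mcm4 (0.56) rose by less. G1 cyclins and their partners moved in both directions. Ccne1, cyclin E1, went from 102, 75.2 and 99.9 CPM to 258, 222 and 231 CPM (1.37, SE 0.10), with Ccne2 (1.13), Rb1 (1.04), Cdkn2c (0.74) and Ccnd3 (0.66) also up. Ccnd2 went from 401, 372 and 227 CPM to 196, 142 and 109 CPM (-1.16, SE 0.10), mouse C lowest in both, and Cdk6 fell by 0.67. In all, 7 of 19 tested G1 genes rose and 2 fell, and the call of Ccnd3 was lost without mouse C. Mitosis genes gave 13 rises among 30 tested at small sizes, such as Ccnb2 (0.61), Birc5 (0.61), Aurka (0.58) and Mki67 (0.26), and Top2a stood at 1073 to 1361 CPM and then at 1119 to 1286 CPM. Their count was 7 rises without mouse A, 5 rises and 1 fall without mouse C and 6 rises without the mouse block.

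Myc, a driver of growth and ribosome production, went from 508, 677 and 673 CPM to 280.0, 325 and 384 CPM (-0.91, SE 0.08, adjusted p = 1.15e-12). Ribosome biogenesis genes moved little: of 28 tested genes of the list, Myc included, 4 fell and 24 did not pass, with a median of -0.12. Over all tested genes 10.3% rose and 9.77% fell. Ncl stood at 8413 to 9430.4 CPM and then at 7507 to 8333 CPM, and Npm1 at 2390.5 to 2668 and 2181 to 2662 CPM, and neither passed. The count of falls was 1 without mouse A, 2 without mouse B, 1 without the mouse block and 9 with scaling to library totals. Survival genes moved in both directions: Bcl2 went from 20.5, 44.4 and 20.4 CPM to 3.72, 6.56 and 0.287 CPM (-3.21, SE 0.66), while Bcl2l11, which encodes the death-promoting BIM, rose from 23.5, 36.8 and 26.6 CPM to 70.2, 68.4 and 49.5 CPM (1.1, SE 0.19). Bcl2l1, which encodes BCL-XL, rose by 1.02 (SE 0.33). The 13 tested genes of the family gave 4 rises and 1 fall, and 2 rises and 1 fall whichever mouse was left out. Of 13 DNA methylation enzymes and readers, the de novo enzymes Dnmt3b (-1.36) and Dnmt3a (-0.59) and the demethylase Tet1 (-0.88) fell and Uhrf1, the partner of the maintenance enzyme, rose (0.57). Dnmt1 itself was at 754 to 1039 CPM and then at 828 to 948 CPM. The call of Tet1 was lost without mouse B or C.

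Glycolysis genes gave 6 falls and 3 rises among 17 tested, where 9.77% of all tested genes fell and 10.3% rose. Pkm, the pyruvate kinase of most tissues, went from 9.40, 13.1 and 13.1 CPM to 0.79, 1.47 and 0.143 CPM (-3.96, SE 0.83), where Pklr rose. Hk2, a hexokinase, went from 34, 45.9 and 19.2 CPM to 8.47, 8.25 and 5.74 CPM (-2.09, SE 0.32), and the main hexokinase Hk1 fell by 0.27. Phosphofructokinase forms moved apart, Pfkp by -1.26 and Pfkm by 0.62. Gapdh stood at 155 to 176 and 154 to 188 CPM. Serine, folate and stress-response genes under ATF4 gave 3 rises (Asns 0.81, Mthfd2 0.66, Atf4 0.38) and 2 falls (Shmt1 -1.59, Phgdh -0.50) among 16 tested, and the call of Phgdh was lost without mouse A or B. Of 23 tested cholesterol genes, 0 passed with edgeR, 5 had an unadjusted p under 0.05 and DESeq2 called 1 fall.

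Adhesion and niche receptors gave 7 falls and 4 rises among 15 tested. Itga6 (-1.63), Itgb2 (-1.41), Selplg (-1.24) and Cd9 (-2.51) fell. Cd82, a tetraspanin, rose from 66.4, 54.7 and 89.3 CPM to 177, 194 and 175 CPM (1.40, SE 0.13), as did Tspan8 (1.63), Itgb1 (0.41) and Itga5 (0.37). The falls numbered 4 without mouse A and 4 without mouse B. Glucocorticoid response genes, which serve self-renewal of erythroid progenitors, gave 6 falls among 11 tested, with Fkbp5 at 149, 133 and 81.5 CPM and then at 56.1, 63.1 and 44.2 CPM (-1.13, SE 0.13), and Zfp36l2, an RNA-binding protein, lower by a log2 fold change of -0.84. Without the mouse block the list gave 2 falls. Interferon and antigen presentation genes gave 8 falls among 22 tested. The proteasome subunit Psmb8 went from 125, 141 and 138 CPM to 37.5, 48.5 and 32.7 CPM (-1.78, SE 0.15), and H2-K1 from 463, 713 and 385 CPM to 268, 380.1 and 224 CPM (-0.83, SE 0.09). Mouse B had the highest H2-K1 in both cell types, and the lowest PreCFU-E value, 385 CPM, lay close to the highest CFU-E value. There were 5 falls without mouse C and 2 without the mouse block.

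The same step in the other genotypes was read from other mice. It gave 2706 genes in FL/FL mice (25.2% of those tested) and 1322 in Lepr-Cre mice (12.3%). Of the 2152 genes called in KO/FL mice, 1665 were called in the same direction in FL/FL mice, which is 77.4% of the KO/FL list and 61.5% of the FL/FL list, and 0 were called in opposite directions. In Lepr-Cre mice 447 rises and 521 falls were shared, 45.0% of the KO/FL list and 73.2% of the Lepr-Cre list, and 1 gene was called in opposite directions. Over the 2152 genes, which were chosen for their change in KO/FL mice, the median size of the log2 fold change was 0.70 in KO/FL, 0.67 in FL/FL and 0.42 in Lepr-Cre mice, and 1741 of them changed more in FL/FL than in Lepr-Cre mice. Kit had steps of -0.93, -0.97 and -0.83 in KO/FL, FL/FL and Lepr-Cre mice, Gata2 of -2.04, -2.37 and -1.86, and Tfrc of 1.05, 1.19 and 0.78. The difference between the KO/FL and FL/FL steps passed for 0 genes (0.0%) with edgeR, where 397 had an unadjusted p under 0.05 and DESeq2 called 2. The smallest adjusted p was 0.0611, for Sptb, with steps of 2.55 (KO/FL) and 3.31 (FL/FL). The Sptb difference passed in 8 of 19 alternatives, and its size ran from -0.916 to -0.513 over the 19.

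**Figure D4:**
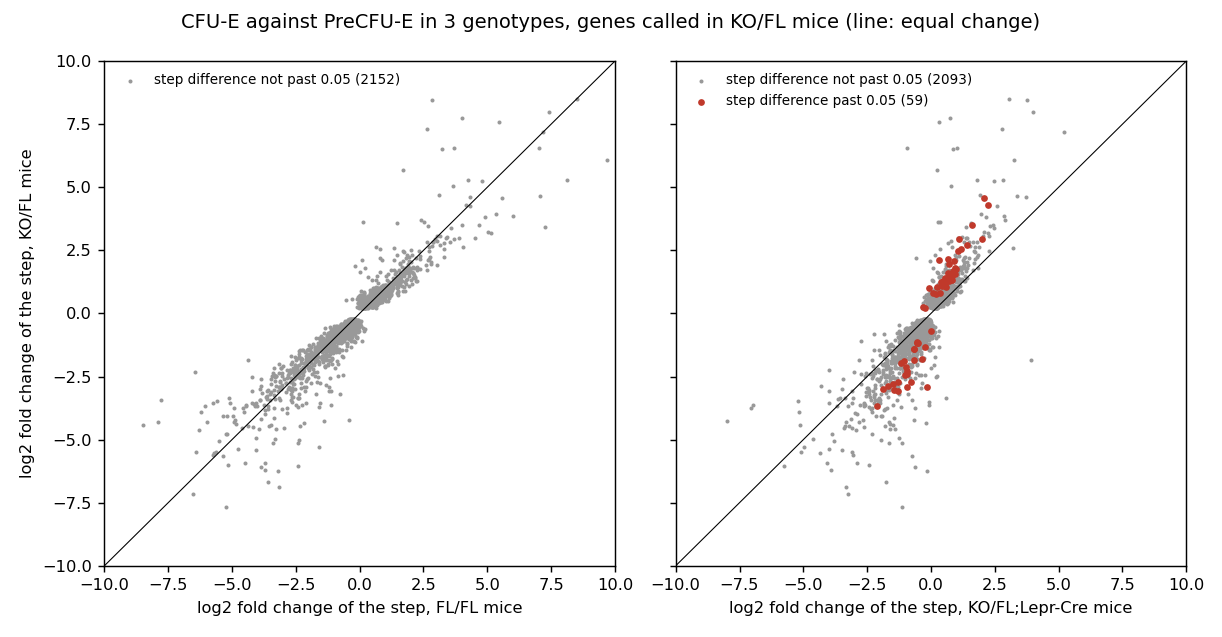
Log2 fold change of CFU-E against PreCFU-E in KO/FL mice (vertical axis) against that in FL/FL mice (left) and Lepr-Cre mice (right), for the 2152 genes called in KO/FL mice. Points scatter about the line of equal change on the left and lie on the steep side of it on the right, and the 59 of them whose step differed between KO/FL and Lepr-Cre mice are red.

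Between KO/FL and Lepr-Cre mice the step differed for 61 genes (0.568% of those tested), with 837 at an unadjusted p under 0.05. For 58 of the 61 the change was larger in KO/FL mice, 33 as rises and 25 as falls, and for 3 it was smaller. The step had opposite signs in 4, and 59 of the 61 were among the genes called in KO/FL mice. For 51 of the 61, the PreCFU-E mean of Lepr-Cre mice lay between the PreCFU-E and CFU-E means of KO/FL mice. Leaving out 1 mouse gave 28 to 65 genes, with 28 without KO/FL mouse B, 29 without KO/FL mouse C, 31 without Lepr-Cre mouse A and 37 without Lepr-Cre mouse C, and a fit without the mouse block gave 0. Sptb had the smallest p of those higher in KO/FL mice. In PreCFU-E it stood at 148, 112 and 109.6 CPM in KO/FL mice A, B and C and at 410.1, 443 and 383 CPM in Lepr-Cre mice, and in CFU-E at 675, 811 and 657 CPM beside 860.1, 1139 and 843 CPM. The cell types were thus further apart in KO/FL mice, by 1.36 on the log2 scale (SE 0.14, adjusted p = 8.98e-08), and the PreCFU-E of the genotypes did not overlap. Sh2d4a, an SH2-domain adaptor, was at 22.2 to 32.9 CPM and then 106 to 133 CPM in KO/FL mice and at 36.9 to 58.7 CPM and then 65.1 to 86.2 CPM in Lepr-Cre mice (difference 1.45, SE 0.22). Abcg4, a sterol transporter gene, differed by 1.40, the protease Ctse by 0.76 and the carboxypeptidase Cpd by 1.24. Cpd was far higher in both cell types of Lepr-Cre mice, at 146.7 to 289 CPM in PreCFU-E beside 14.7 to 40.1 CPM in KO/FL mice. In CFU-E it stood at 260 to 484 CPM beside 69.6 to 119 CPM. Its rise was thus larger in KO/FL mice as a ratio and not in CPM.

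Apoe (chromosome 7, 19696109 to 19699188), which encodes apolipoprotein E, had the smallest p of those lower in KO/FL mice. It stood at 211, 373 and 366 CPM in PreCFU-E of KO/FL mice and at 77, 102 and 103 CPM in those of Lepr-Cre mice. CFU-E of the genotypes overlapped, at 17.6 to 30 CPM and 19 to 24.1 CPM. Its steps were -3.68 (KO/FL) and -2.11 (Lepr-Cre), a difference of -1.58 (SE 0.17, adjusted p = 5.24e-08). Igfbp4 (-1.99), Arpc1b (-1.32), the urea cycle enzyme Ass1 (-1.28) and Arhgef2 (-0.77) differed in the same direction. The call of Ass1 was lost without KO/FL mouse C (adjusted p = 0.0634), and those of Arpc1b (0.0607) and Arhgef2 (0.0617) without Lepr-Cre mouse A. For Ass1 the genotypes overlapped in PreCFU-E, at 78.8 to 108 CPM in KO/FL and 81.5 to 110.3 CPM in Lepr-Cre mice, and parted in CFU-E, at 9.32 to 17.9 CPM and 28.4 to 38.3 CPM. Among listed genes, the step differed for the KIT signalling components Grb2 (-0.60), Gab1 (0.79) and, in the ERK list, Egr1 (-2.78). Egr1 was at 10.9 to 22 CPM in PreCFU-E of KO/FL mice and at 1.16 to 2.19 CPM in those of Lepr-Cre mice, and at 1.69 to 2.01 and 0.601 to 2.95 CPM in CFU-E. It also differed for Ccnd2 (-0.63), Abcb10 (0.59), Cpox (0.48), Add2 (0.66), Rhag (0.63), Prdx2 (0.46), Pdk1 (0.71) and Trim10 (2.04), and for Rgcc (1.88) and Cacna1e (2.49) among the largest rises. Trim10 of Lepr-Cre mice went from 8.07 to 15.2 CPM to 38.2 to 61.4 CPM. Its mean rise in CPM was thus not larger in KO/FL mice.

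**Figure D5:**
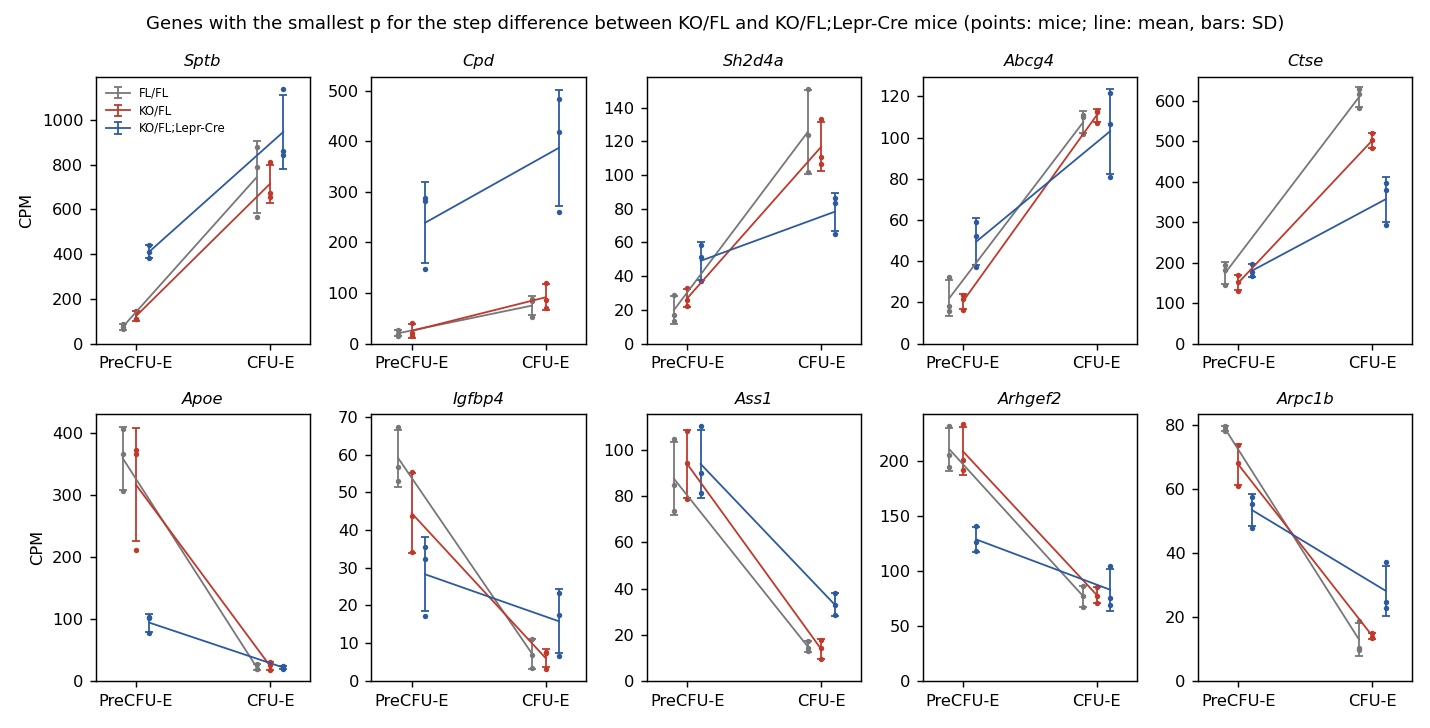
Levels (CPM, axes from 0) in PreCFU-E and CFU-E of the 5 genes per direction with the smallest p for the step difference between KO/FL and Lepr-Cre mice, with points for mice, lines between means and bars for SD (n = 3 per group). Sptb and Apoe of Lepr-Cre mice stand apart from the other genotypes in PreCFU-E, and Ctse and Ass1 in CFU-E.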

How the data were processed

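RNA-seq libraries were made from sorted bone marrow cells with a stranded total RNA kit, per the labels' protocols. Their heading names a nuclear extraction while their text describes RNA from sorted cells, so whether the levels are of nuclear or whole-cell RNA is not settled. The authors aligned reads with STAR 2.5.2b and counted them with HTSeq on mm10, per the submitters' processing notes. Not given in the sources used here are the counter's version, strand setting and annotation, so reads of a gene and of an antisense or overlapping partner may not be told apart. The deposited table holds raw counts per gene, and the authors' deposited RPKM table was used for 2 alternatives only. Its divisor was within 10% of the gene's exon length for 3.156% of 15400 genes, so levels between genes are CPM per kb of GENCODE M21 exon length in place of the planned RPKM. Gene positions are from GENCODE M21 and promoter windows from RefSeq.

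The groups come from the labels, with 3 mice per genotype. Genes were kept by filterByExpr (minimum count 10, total 15) over 6 groups. edgeR 4.0.16 in R 4.3.3 fitted all 18 libraries by robust quasi-likelihood with TMM factors, 9 mouse coefficients and 3 step coefficients, which left 6 residual degrees of freedom, with two-sided tests and an adjusted p threshold of 0.05. Library totals ran from 3541066 to 9389122. PreCFU-E and CFU-E come from the same mouse by their labels, so the mouse was a block. The deviations of same-mouse KO/FL libraries correlated by 0.08574 (A), 0.1759 (B) and 0.1061 (C) across genes, beside -0.1209 to 0.002379 between mice. No libraries of a group agreed within counting noise, with chi-square per degree of freedom of 7.934 to 17.29 between KO/FL replicates. The fit was also run on simulated counts in which only the KO/FL step changed, a simpler setting than these data. That run was a check of the code and not of these results.

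Named genes were Kitl and Kit, the 12 largest rises and falls among genes with a mean of 5 CPM or more that passed the test, did not overlap and moved one way in all 3 mice, up to 6 members per gene list in detail and others in brief, the 5 smallest p per direction of a step difference, and the 10 most abundant genes. The members and lists were chosen with earlier results of these data known. The 22 alternatives used other scaling, filters, tools (DESeq2 1.42.0, limma 3.58.1), blocks and left-out mice. Intervals and floors cover counting error only. A few genes that met these rules are not reported here.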

Additional observations from a re-analysis of the deposited data

Results flagged for a closer look

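The results listed here are those whose step from PreCFU-E to CFU-E differed between KO/FL and Lepr-Cre mice by a test of the difference itself (edgeR, adjusted over all tested genes). That held for 61 genes. It held for 0 without the mouse block and for 0 with limma on RPKM at either pseudocount.

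Rises that were larger in KO/FL mice included membrane and surface genes, with differences in log2 fold change of 1.36 for Sptb, 0.66 for Add2 and 0.63 for Rhag. The haem genes Abcb10 (0.59) and Cpox (0.48), the peroxiredoxin Prdx2 (0.46) and the adaptor Gab1 (0.79) were also among them, as were Pdk1 (0.71), Cacna1e (2.49), Trim10 (2.04), Rgcc (1.88), Sh2d4a (1.45), Abcg4 (1.40), Cpd (1.24) and Ctse (0.76). For Cpd and Trim10 the rise was larger in KO/FL mice as a ratio and not in mean CPM. Trim10 was at 0.551 to 4.31 CPM in PreCFU-E of KO/FL mice and at 8.07 to 15.2 CPM in those of Lepr-Cre mice. Add2 and Rhag of the 2 genotypes overlapped in CFU-E and lay apart in PreCFU-E, where Lepr-Cre mice were higher. Sptb was higher in Lepr-Cre mice in both cell types.

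Falls that were larger in KO/FL mice included Apoe (-1.58), Igfbp4 (-1.99), Arpc1b (-1.32), Ass1 (-1.28), Arhgef2 (-0.77), Egr1 (-2.78), Ccnd2 (-0.63) and Grb2 (-0.60). Egr1 did not pass for the step in Lepr-Cre mice, at -0.14. The call of Ass1 was lost without KO/FL mouse C, and those of Arpc1b and Arhgef2 without Lepr-Cre mouse A.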

How the results depend on the processing

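The 2152 genes of the KO/FL step stayed within 1.5 times under all 22 alternatives, from 1490 (6 libraries, no mouse block) to 2390 (without Lepr-Cre libraries), and 1510 passed without the replicate block in all 18 libraries. Leaving out 1 mouse of any genotype gave 1500 to 2350. Of 162 named genes, 124 kept call and direction in every alternative, 38 missed the threshold in at least 1, and 0 reversed. B2m, H2-K1, H2-D1, Tap1, Gpx1 and Dnmt3a missed it only in fits without the block.

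The step difference between KO/FL and FL/FL mice passed for 0 genes, and for 1 with DESeq2 size factors, 2 with DESeq2, 2 with no filter on low counts and 2 without the B mice. Leaving out 1 mouse gave 0 to 3. The 61 genes of the difference between KO/FL and Lepr-Cre mice became 0 without the replicate block, 0 with limma at either pseudocount on RPKM and 97 with no filter, and 28 to 65 when 1 mouse was left out. The cause was not tested. With 3 mice per genotype and a floor of 3 counts, folds of genes at 0 in PreCFU-E, such as Alas2, are lower bounds.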
